A study of Mus musculus with 16 samples.

Results

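Total RNA from 3 Nat1-/- embryonic stem cell clones was compared with total RNA from 2 wild-type (WT) cultures, across every gene with a mean of at least 10 normalised reads over the 8 total RNA libraries of the study. The rule kept 13813 of the 21977 genes in the table, and 5 of the 16 libraries carry the comparison. All cells were RF8 mouse embryonic stem cells, grown on gelatin in medium with LIF, the cytokine that maintains self-renewal. WT replicates 1 and 2 are cultures of the parental line, and Nat1-/- replicates 1, 2 and 3 are the clones B12, B2 and C3, which lack both functional Nat1 alleles. The 3 Nat1+/- clones A7, B4 and C1 (replicates 1, 2 and 3), which keep a functional allele, contributed to the estimate of the spread and are cited for orientation. The other 8 libraries are ribosome-protected fragments (RPFs, mRNA pieces covered by ribosomes) of the same cultures. The sources used here do not say how the alleles were disrupted. The WT replicates carry no clonal difference, whereas each Nat1-/- replicate is a single clone, so a p-value here measures the spread among 2 cultures and among clones.

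The gene Nat1 is listed in the table as Eif4g2, and its protein is also called DAP5 or p97. This protein resembles the translation initiation scaffold eIF4G but lacks the region that binds the cap-binding protein eIF4E, and it supports translation of selected mRNAs. Embryonic stem cells without Nat1 are known to proliferate but to differentiate poorly. Mouse embryonic stem cells shift between a naive state, sustained by LIF, STAT3 and factors such as Klf4, Tbx3 and Nanog, and a formative or primed state that precedes lineage choice and depends on FGF and ERK signalling. The comparison asks how far the RNA content of the null clones departs from that of the parental line.

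Sequencing depth of the total RNA libraries, in M reads, ranged from 13.2 to 42.6. Both WT libraries (42.6 and 33.6 M) and B12 (42.5 M) were deep, and B2 and C3 shallow (16.4 and 14.2 M), so depth partly follows genotype. Over 3 libraries a count of 0 allows 0.895 normalised reads in Nat1-/-, and over 2 libraries 0.784 in WT, counting error only. Replicates differed by more than sampling noise. The WT libraries correlated at r = 0.990 across genes and 213 genes lay at least 2-fold apart, against 764 between B12 and B2, 1114 between B2 and C3 and 1919 between B12 and C3. The first principal component (65.5% of the variance) placed the null clones at 73.6 to 85.4 and the WT cultures at -67.3 and -61.7. Transcripts of the stem cell markers Pou5f1, Sox2 and Zfp42 were abundant in all 5 libraries, from 9519 to 35903 normalised reads.

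Eif4g2 RNA was lower in the null clones but not absent. It read 47932 and 26985 normalised reads in WT and 12249, 8795 and 5085 in Nat1-/-, which are means of 37458 ± 14812 (SD, n = 2) and 8710 ± 3582 (SD, n = 3). The groups did not overlap, and the Nat1-/- mean was 23.3% of the WT mean. Nat1+/- clones A7, B4 and C1 read 15335, 12092 and 10674, and both B4 and C1 lie below the highest null clone, B12. The log2 fold change was -2.14 ± 0.35 (SE; limma, adjusted p = 0.0012), and the two-sided exact permutation p was 0.2, the smallest that 3 against 2 libraries allow. Footprints of Eif4g2 differed more, by -3.91 on the log2 scale. The closest relatives of the gene did not follow a common course. Eif4g1, the general initiation scaffold, read 13820 and 16348 in WT and 17235, 16778 and 12650 in Nat1-/-, which overlap (log2 fold change 0.04 ± 0.17, adjusted p = 0.888), and its sign changes with scaling (-0.08 with equal library sums). Eif4g3, a further eIF4G, read 1596 and 1577 in WT and 529, 494 and 398 in Nat1-/-. It fell by 1.75 ± 0.18 on the log2 scale (adjusted p = 1.0e-04), while the Nat1+/- clones at 1168 to 1556 lay just under WT.

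A large part of the transcriptome differed. Of 13813 genes, 4839 (35.0%) were called, which here means an adjusted p under 0.05 in limma on log2(value + 1). Of these 2231 (16.2%) were higher and 2608 (18.9%) lower in the null clones, and these shares are the background for every list below. The lower calls were larger, with a median log2 fold change of -1.71 against 0.85 for the higher ones. At 2-fold or more, 2733 genes (19.8%) were called, of which 869 genes (6.29%) were higher and 1864 (13.5%) lower, and at 16-fold or more the counts were 14 and 282. Values of the 5 libraries did not overlap for 60.1% of all genes (30.0% in each direction). Among called genes this held for 2230 of the 2231 higher and all 2608 lower ones, so no overlap adds little to a call. When library sums were set equal in place of the deposited factors, the median gene moved by -0.12 on the log2 scale and the calls became 1632 higher and 3126 lower, so that 34.3% in place of 46.1% of calls were higher. Leaving out WT replicate 1, the count fell to 2412 (1010 higher and 1402 lower), and without WT replicate 2 to 2683 (1140 and 1543). Footprints had the same sign for 2196 of the 2231 higher and 2601 of the 2608 lower genes. The Nat1+/- mean lay nearer to WT than to the null clones for 65.4% of the higher and 71.6% of the lower genes, which were chosen with both of those group means.

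**Figure D1:**
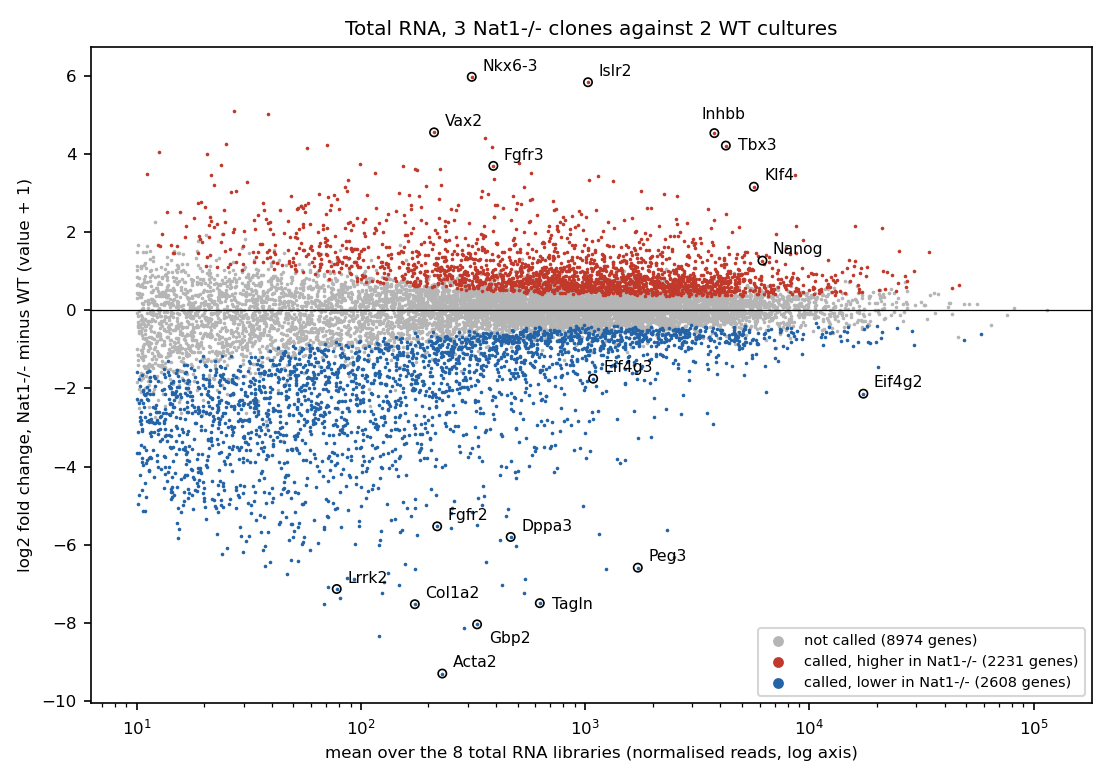
Each point is 1 of 13813 tested genes, with its mean over the 8 total RNA libraries in normalised reads (log axis) against its log2 fold change, Nat1-/- minus WT. Red points are the 2231 genes called higher, blue points the 2608 called lower, and the blue cloud reaches farther from 0, down to -9.29 for Acta2.

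The genes with the highest fold changes rose from WT levels of at most 682 normalised reads (Tbx3). Nkx6-3, a homeobox transcription factor, read 4.60 and 18.8 normalised reads in WT and 968, 771 and 380 in Nat1-/- (log2 fold change 5.97 ± 0.89, adjusted p = 7.7e-04). Islr2, a leucine-rich repeat membrane protein of neurons, read 34.5 and 58.7 in WT and 2497, 2714 and 2645 in the null clones (5.83 ± 0.63). Vax2, a homeobox factor of the ventral eye, read 16.1 and 27.8 against 435, 536 and 598 (4.55 ± 0.42). For these genes every null clone exceeded both WT cultures by more than 10-fold. Inhbb, the activin B subunit, read 231 and 515 in WT and 12655, 7936 and 5057 in Nat1-/- (4.53 ± 0.44). Tbx3, a T-box factor of naive cells, read 364 and 682 against 11011, 10536 and 6791 (4.21 ± 0.31). Others among the 12 highest were Rapgef3, a cAMP-activated exchange factor (4.40), Skida1 (4.23), Igsf21 (4.16), Ppp1r14d (4.15), Crtac1 (3.77) and the histidine-degrading enzyme Hal (3.73).

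The genes with the 12 lowest fold changes were reduced to few or no reads in the null clones, at most 24 normalised reads in those shown. They were likewise chosen by fold change and for no overlap, so low values in the null clones go with the choice. Acta2, smooth muscle actin, read 382 and 1356 in WT and 0.517, 0 and 0 in Nat1-/-, a single read in 3 libraries (ratio of WT to Nat1-/- 2690, exact 95% interval 483 to 106000, counting error only). Tagln, the actin-binding transgelin, read 2105 and 2449 against 9.32, 16 and 10.4 (log2 fold change -7.49 ± 0.62). Thbs1, the matrix protein thrombospondin 1, read 1203 and 2426 against 4.14, 24 and 10.4 (-7.23 ± 0.82). All of these were separated from WT by a gap of at least 50-fold. Gbp2 and Gbp2b, interferon-inducible guanylate-binding proteins, fell by 8.04 ± 1.08 and 8.14 ± 1.07. These paralogs are almost the same in sequence, so their reads may have been divided between them and their values are uncertain. The others were the protease Prss23 (-8.33), Col1a2 (-7.52), the guidance factor Sema3c (-7.50), Vrtn (-7.36), Fndc3c1 (-7.24), the kinase Lrrk2 (-7.13) and Enpp2, the enzyme autotaxin (-7.09). Another 8 called genes had no read in any null clone, among them Col8a1 (at least 100-fold lower, against 3 reads over the group), Slitrk3 (at least 65.5-fold), Cav2 (at least 54.1-fold) and Ankrd1 (at least 52.5-fold). All Nat1+/- clones lay between the groups for 11 of the 12 lowest genes (in Gbp2b the clone B4, at 559, exceeded WT replicate 2, at 521), and B4 was above A7 and C1 for each of the 12.

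**Figure D2:**
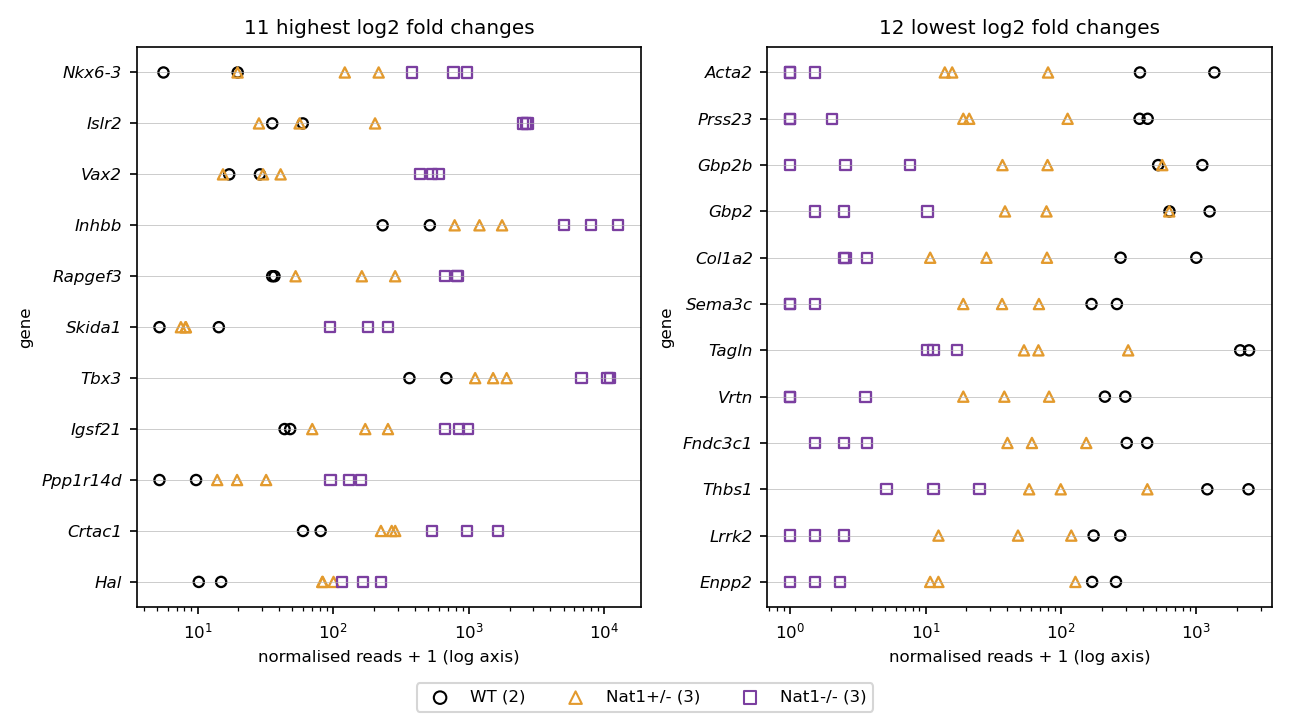
Normalised reads + 1 (log axis) in each library for the genes with the 11 highest and the 12 lowest log2 fold changes; circles are WT, triangles Nat1+/- and squares Nat1-/-. The genes were chosen for no overlap between Nat1-/- and WT. By that rule the squares lie right of both circles in the left panel and left of them in the right panel. Most triangles lie between.

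Genes of chromosomes 8 and 11 were lower as a group in all null clones. The median log2 fold change was -0.47 over 751 genes of chromosome 8 and -0.41 over 1144 genes of chromosome 11, against -0.01 to 0.21 for the other 17 autosomes. These medians correspond to 72.2% and 75.4% of the WT level. For chromosome 8 the clones B12, B2 and C3 stood at -0.46, -0.45 and -0.46 and the Nat1+/- clones A7, B4 and C1 at -0.05, -0.08 and -0.07. For chromosome 11 the null clones stood at -0.40, -0.41 and -0.43, and the Nat1+/- clones at -0.54, -0.17 and -0.42. On chromosome 8, 298 genes (39.7%) were called lower and 33 (4.39%) higher, and on chromosome 11 388 (33.9%) and 62 (5.42%). On the other autosomes the shares were 15.7% lower and 18.3% higher. Both chromosomes, with 13.7% of the tested genes, thus held 686 (26.3%) of the lower calls, but 324 (17.4%) of those of at least 2-fold. Copy number of these chromosomes was not tested.

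The lower level extended along both chromosomes. When the tested genes were divided into 10 blocks in gene order, all 10 blocks of chromosome 8 had negative medians (-0.23 to -0.62), as had all 10 of chromosome 11 (-0.21 to -0.55). In the first block of chromosome 8 the Nat1+/- clones A7 and C1 were also low (-0.42 and -0.42), and B4 was not (-0.02). On chromosome 1 the clones went apart, with B12 at 0.38 and B2 and C3 at 0.11 and 0.05, and B4 highest of all at 0.55. X-linked genes had a median of -0.19 (481 genes, 53 higher and 131 lower). Without the genes of chromosomes 8 and 11, 2131 higher and 1915 lower calls were made. When each library was centred on the median of each chromosome, 2127 higher and 2431 lower calls were made, of which 4072 were calls of the uncentred fit.

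**Figure D3:**
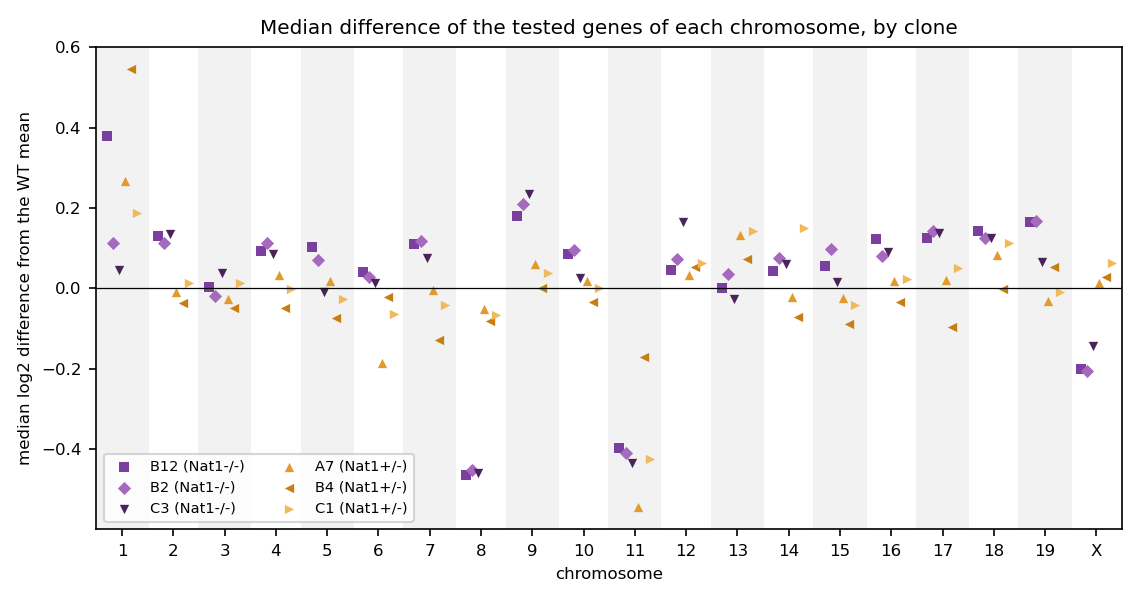
Median log2 difference from the WT mean over the tested genes of each chromosome, 1 symbol per clone. On chromosome 8 only the 3 Nat1-/- clones lie near -0.46, and on chromosome 11 all 6 clones lie below 0, with B4 nearest to it.

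**Figure D4:**
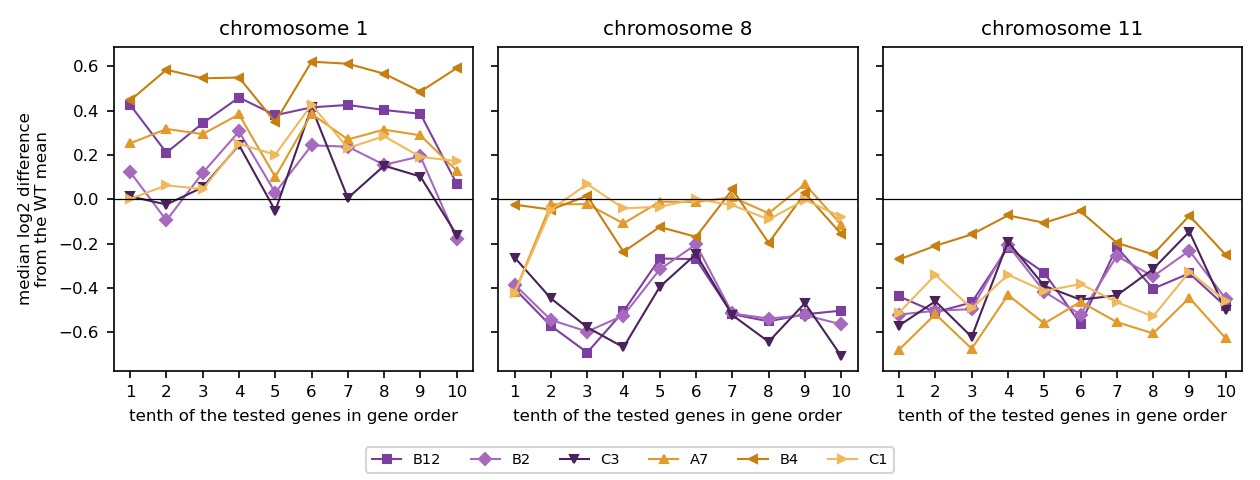
Median log2 difference from the WT mean in 10 consecutive blocks of tested genes along chromosomes 1, 8 and 11, 1 line per clone. The Nat1-/- lines stay below 0 in every block of chromosomes 8 and 11.

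Naive pluripotency genes were mostly higher in the null clones. Of 26 listed and tested genes 17 rose and 2 fell, with a median log2 fold change of 1.29 beside 0.02 for all genes. Klf4, a factor that acts downstream of STAT3, read 1263 and 1384 in WT and 14431, 12631 and 9024 in Nat1-/- (3.16 ± 0.27, adjusted p = 4.7e-05). Tfcp2l1, a further naive-state factor, read 4892 and 6258 against 30561, 22592 and 21743 (2.16 ± 0.24). Nanog, a homeobox factor of the pluripotency core, read 3258 and 4416 against 9502, 9260 and 8650 (1.27 ± 0.15). In all of these the null clones lay above both WT cultures. The Nat1+/- clones lay between the groups, at 1609 to 3080 for Klf4, 9728 to 15912 for Tfcp2l1 and 4527 to 5051 for Nanog. Dppa5a (2.1), the kinase-pathway ligand Fgf4 (1.45) and the receptor Esrrb (0.87, not called without WT replicate 1) also rose. Dppa3, a maternal factor that protects methylation marks in the early embryo, went the other way, with 899 and 1061 in WT and 20.2, 10.7 and 20.9 in Nat1-/- (-5.80 ± 0.43). Klf2, on chromosome 8, fell by 0.97 ± 0.16.

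Genes shared by all pluripotent states were called about as often as all genes, 33.3% against 35.0%. Of 18 tested, 4 rose and 2 fell (median 0.05), and without WT replicate 1 only 2 rose. Sox2, the partner of Oct4, read 9519 and 9697 in WT and 21977, 22376 and 24369 in Nat1-/- (1.25 ± 0.12, adjusted p = 9.3e-05), with no overlap. Pou5f1, which encodes Oct4, read 21346 and 22764 against 33682, 31391 and 24797, which did not pass the test (0.43 ± 0.17, adjusted p = 0.0661). Lin28b, an RNA-binding inhibitor of let-7 maturation, read 1387 and 1101 in WT and 296, 125 and 71.6 in the null clones (-3.15 ± 0.44), and its paralogue Lin28a, at -0.72, was not called. Cdh1, the adhesion protein E-cadherin, fell by 0.88 ± 0.14 and lies on chromosome 8.

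Several transcripts of the LIF pathway were higher, and that of the ligand was lower. Of 22 tested genes 9 rose and 1 fell, with a median of 0.45, and without WT replicate 1 only 4 rose. Lifr, the LIF receptor, read 3447 and 3388 in WT and 9117, 8624 and 9036 in Nat1-/- (1.38 ± 0.14, adjusted p = 1.1e-04). Socs3, a feedback inhibitor induced by STAT3, read 2158 and 2373 against 5120, 5237 and 6384 (1.29 ± 0.17). Both were clear of WT in every clone, whereas Stat3 itself rose by 0.61 ± 0.18, a call lost without WT replicate 1 or B2. Stat5a read 83.8 and 68.4 against 195, 366 and 720, highest in C3 (2.28 ± 0.45). Lif, which the medium supplied, read 154 and 146 in WT and 49.2, 54.6 and 29.8 in Nat1-/- (-1.77 ± 0.33), and the Nat1+/- clones at 39.2 to 54.2 were as low. Stat3, Socs3, Stat5a and Lif lie on chromosome 11, where the median was negative.

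Formative and primed epiblast genes were mostly lower. Of 22 tested genes (23 listed) 13 fell and 4 rose, and the median was -1.95. Cdh2, N-cadherin, read 565 and 552 in WT and 6.21, 5.33 and 2.98 in Nat1-/- (-6.63 ± 0.36, adjusted p = 6.5e-06). Fgf5, the classical marker of the primed epiblast, read 176 and 49.6 against 2.07, 4.0 and 0 (-5.25 ± 0.88). Wnt3, a ligand of the primitive streak, read 105 and 146 against 2.59, 6.66 and 1.49 (-4.94 ± 0.81). The null clones were below both WT cultures for each, by at least 10-fold. Sox4 (-3.60), Fgf8 (-2.93), Zic2 (-2.32) and the POU factor Pou3f1 (-2.30) also fell. Otx2, a regulator of the move to the primed state, overlapped (1285 and 930 against 1048, 1291 and 1276). Foxd3, which acts in the same transition, was higher, with 399 and 422 in WT and 2550, 2158 and 965 in Nat1-/- (2.08 ± 0.38), while the Nat1+/- clones at 80.6 to 146 were under WT. The others that rose were Nodal (0.71), the WNT antagonist Sfrp1 (1.89) and Nkx6-3, which was listed with earlier results known. The Nodal call was lost without WT replicate 1, WT replicate 2 or B2, and that of Fgf8 without WT replicate 1.

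Neural genes split in opposite directions. Of 14 tested genes (25 listed) 6 rose and 7 fell, so that a single one was not called. The other listed members were too low to be tested. Sox1, an early neural plate factor, read 35.0 and 21.8 in WT and 212, 208 and 234 in Nat1-/- (2.93 ± 0.28), and Pax2, an optic and midbrain factor, 1.38 and 1.21 against 135, 33.3 and 16.4 (4.24 ± 0.80). In WT Pax2 read under the filter mean of 10, so it was tested through its level in the clones. By contrast Sox11, of neuronal progenitors, read 2914 and 1830 against 61.6, 66.6 and 88.0 (-5.00 ± 0.30), and Nes, the intermediate filament nestin, 3429 and 1963 against 139, 184 and 259 (-3.78 ± 0.42). Pax6 read 161 and 190 against 10.3, 14.7 and 25.3 (-3.39 ± 0.40). Skida1, Vax2 and Islr2, named above, are among the members that rose, and they were listed with earlier results known.

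Among other lineages, trophoblast genes were mostly lower. Of 20 tested (23 listed) 12 fell and 2 rose, Tead4 (1.36) and Ets2 (1.07), with a median of -1.93. Cdx2, a caudal homeobox factor of trophectoderm, read 35.4 and 65.9 in WT and 1.03, 4.0 and 0 in Nat1-/- (-4.51 ± 0.77). Krt18, a simple epithelial keratin, read 2075 and 2975 against 207, 240 and 201 (-3.52 ± 0.42), and its partner Krt8 2404 and 3184 against 456, 458 and 459 (-2.59 ± 0.54). The keratins were tight among null clones and clear of WT. Krt8 was lower still in the Nat1+/- clones A7 and C1, at 209 and 271. With WT replicate 1 removed, a single trophoblast gene rose. For mesendoderm and mesoderm 3 of 14 rose and 3 fell, and for endoderm 4 of 17 rose and 4 fell. The BMP ligand Bmp4 (2.39 ± 0.49) and the endoderm factors Sox7 (2.75 ± 0.73) and Gata4 (1.42 ± 0.42) rose, while T, or Brachyury (-4.24), Hand1 (-4.84) and Dab2 (-4.63) fell. Hand1 and Cdx2 passed the filter through the WT cultures. The calls of Bmp4 and Tead4 were lost without WT replicate 1, those of Hand1 and Sox7 without WT replicate 2, and that of Gata4 without either WT library, B2 or C3. When WT replicate 1 was omitted, a single gene rose in each of these lists; without WT replicate 2 a single mesoderm and 2 endoderm genes fell and 2 endoderm genes rose, and without B2 or C3 also 2 rose. Of 35 Hox genes 5 had a mean high enough to be tested. Hoxb13 read 3.68 and 4.84 in WT and 40.9, 53.3 and 47.7 in Nat1-/-, so that it passed the filter through the null clones, and Hoxc13 read 15.6 and 13.9 against 109, 98.6 and 143.

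**Figure D5:**
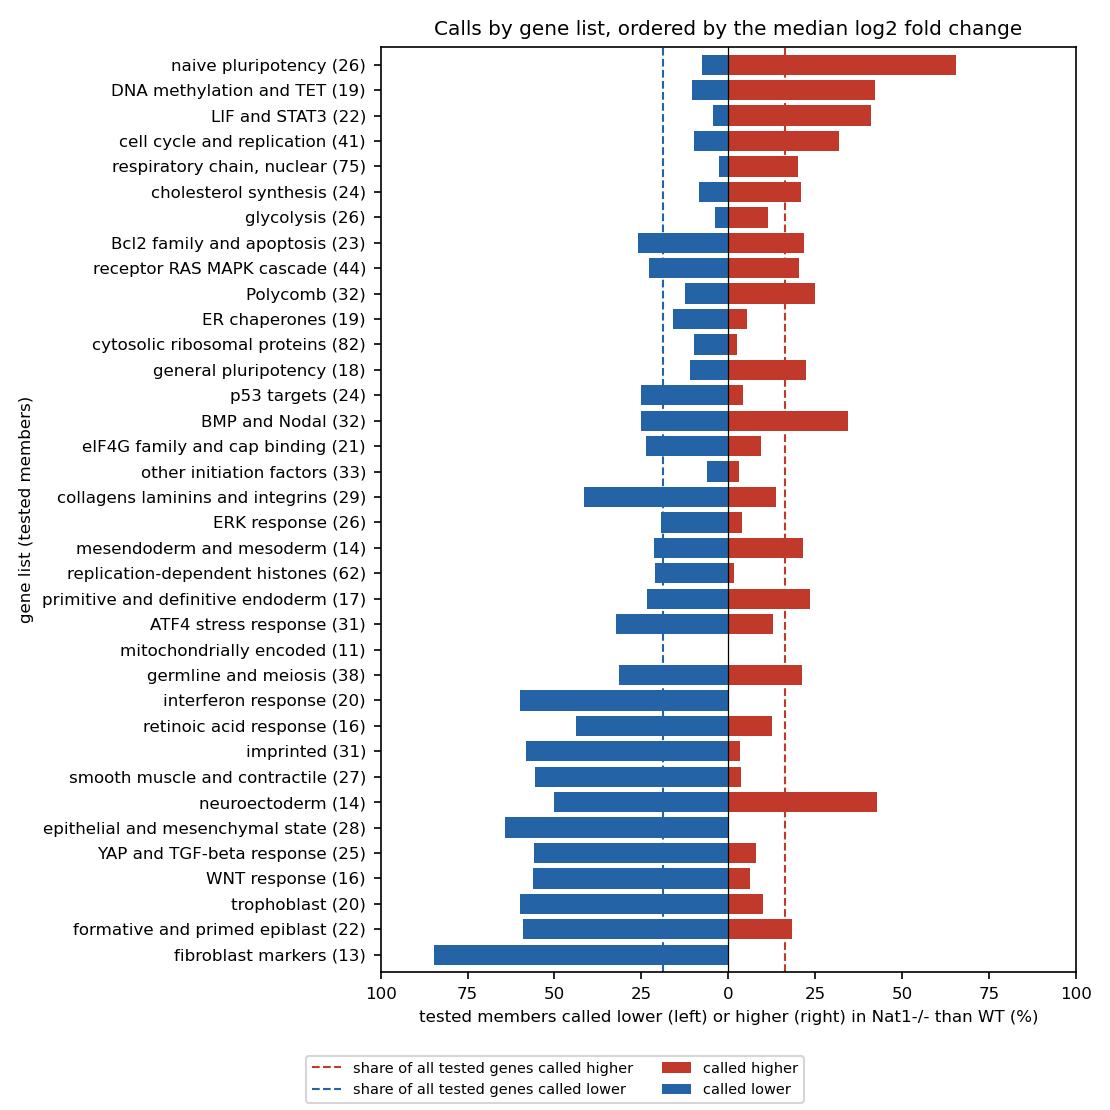
Share of tested members called higher (right) or lower (left) in each gene list with at least 10 tested members, ordered by median log2 fold change, with dashed lines at the shares over all tested genes (16.2% higher, 18.9% lower). Naive pluripotency is at the top and fibroblast markers at the bottom.

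Smooth muscle and contractile genes were mostly lower or not called. Of 27 tested (29 listed) 15 fell and 1 rose (Ptrf, 0.47, not called without WT replicate 1, WT replicate 2, C1 or B2), with a median of -1.18. Myl9, a myosin light chain, read 221 and 231 in WT and 3.62, 4.0 and 7.45 in Nat1-/- (-5.29 ± 0.81, adjusted p = 9.1e-04). Cnn2, a calponin, read 2118 and 2212 against 245, 324 and 380 (-2.79 ± 0.29), and Acta1, skeletal actin, 179 and 261 against 4.66, 5.33 and 1.49 (-5.60 ± 0.66). Every null clone was far below WT for these, as for Acta2 and Tagln. The Nat1+/- clones were also low, for Cnn2 at 338 to 677. Vcl, the adhesion protein vinculin, stood at -0.85 ± 0.22, a call lost without WT replicate 1 or WT replicate 2. The transcription factor that drives this class, Srf, overlapped, with 1492 and 1248 in WT and 1574, 1360 and 953 in Nat1-/- (-0.11 ± 0.22), and its coactivators Mkl1 (0.15) and Mkl2 (-0.02) were not called.

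SRF binds a motif known as the CArG box. The pattern searched here was CCWWWWWWGG (W is A or T), with no mismatch allowed. In the RefSeq windows of 250 bases upstream of gene starts (GRCm38.p6), searched on both strands, 482 of 32851 windows (1.47%) held it, and it was present for 5 of 22 matched contractile genes, of 27 tested. Of the 15 that fell, 14 were matched and 4 held it, namely Acta1, Cnn2, Myl9 and Vcl. The remaining gene with the box was Srf itself. Acta2 and Tagln, which also fell, were not among the genes with the box. A box with a mismatch or outside the 250 bases would not have been found, and a gene without a matched window was not searched. The upstream sequences of Myl9 and Cnn2 are shown, since both fell while Srf was not called, with the box in capitals.
Myl9, chr2:156775214-156775463, plus strand: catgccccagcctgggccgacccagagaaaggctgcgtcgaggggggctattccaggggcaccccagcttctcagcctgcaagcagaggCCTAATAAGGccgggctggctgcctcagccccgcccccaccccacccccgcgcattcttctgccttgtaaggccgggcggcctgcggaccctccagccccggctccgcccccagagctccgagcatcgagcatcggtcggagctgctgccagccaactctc
Cnn2, chr10:79988350-79988599, plus strand: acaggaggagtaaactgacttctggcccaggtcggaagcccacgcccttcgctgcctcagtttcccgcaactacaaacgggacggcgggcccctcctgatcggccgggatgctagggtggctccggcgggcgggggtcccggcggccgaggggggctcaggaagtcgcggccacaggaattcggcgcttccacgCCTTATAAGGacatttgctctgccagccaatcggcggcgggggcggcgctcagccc
A match is a description of these letters and not of binding.

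Fibroblast markers were mostly lower. Of 13 tested fibroblast markers (22 listed) 11 fell, with a median of -2.21, and without WT replicate 2 only 5 fell. Col1a1, a fibrillar collagen chain, read 792 and 2729 in WT and 21.2, 24 and 19.4 in Nat1-/- (-6.03 ± 0.82). Its partner Col1a2 read 274 and 998 against 1.55, 2.66 and 1.49 (-7.52 ± 0.78). WT replicate 2 exceeded WT replicate 1 more than 3-fold for both, and also for Acta2. The summed level of the fibroblast markers was 6117 and 9795 in WT, 1735 to 3123 in Nat1-/- and 2916 to 4119 in Nat1+/-. The defining markers Lum, Dcn, Postn and Prrx1 were too low to be tested, with Lum at 0.92 and 0 in WT. Thy1 stood at -1.08 ± 0.37, a call lost without WT replicate 1, WT replicate 2, A7, B2 or C3, and Twist1 at -0.50 was not called. The summed level of 14 endothelial, blood and immune markers was 2708 and 3518 in WT and 1888 to 3988 in Nat1-/-; of 6 tested 3 fell and 1 rose, and 0 rose without WT replicate 1. A contribution of other cell types to these differences was not tested, and fewer cells of a type cannot be told apart from less RNA per cell in bulk samples. In a list of 29 tested collagens, laminins and integrins, 12 fell and 4 rose. Tnc, tenascin C (-5.78), Itgb8 (at least 36.5-fold lower) and Itgb1, on chromosome 8 (-1.30), were among those that fell. Others went up: Lama5, a laminin chain, with 4337 and 4705 in WT and 9985, 12971 and 14402 in Nat1-/- (1.45 ± 0.20), together with Nid1 (1.59), Itgb4 (1.55) and Itga6 (1.19). The laminin chain Lamb1 went the opposite way, with 2576 and 3723 against 655, 440 and 406 (-2.66 ± 0.25).

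Most YAP and TGF-beta response genes were lower, and Wwtr1 and Yap1 were higher. Of 25 tested genes (27 listed) 14 fell and 2 rose, with a median of -1.27. Cyr61, a matricellular YAP target, read 872 and 1080 in WT and 50.7, 34.6 and 14.9 in Nat1-/- (-4.98 ± 0.61), and Ctgf 2379 and 2122 against 193, 173 and 74.5 (-4.04 ± 0.51). The coactivator Wwtr1, or TAZ, read 1024 and 933 against 1722, 2022 and 2226 (1.02 ± 0.15). Yap1 read 4646 and 4558 against 7179, 6376 and 5507 (0.46 ± 0.14), and a single one of both was called without WT replicate 1, WT replicate 2, B12 or B2. Of 28 tested epithelial and mesenchymal genes 18 fell and 0 rose in limma, and the median was -1.21. The genes that fell came from both states, with Cd44 (-5.80), Anxa1 (-5.69) and Zeb2 (-3.86) on the mesenchymal side and Cdh1, Ocln (-1.59) and Cldn6 (-1.67) on the epithelial side. Without B12 a single gene of that list rose.

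Imprinted genes, which are expressed from 1 parental allele, were mostly lower. Of 31 tested (40 listed) 18 fell and 1 rose, with a median of -1.18. Igf2, a fetal growth factor, read 1098 and 2187 in WT and 10.3, 16 and 7.45 in Nat1-/- (-7.04 ± 0.51, adjusted p = 1.9e-05). Snrpn, a splicing protein of the Prader-Willi region, read 3218 and 2090 against 55.9, 37.3 and 7.45 (-6.62 ± 0.64). Peg3, a zinc finger gene, read 2276 and 2579 against 59.0, 48.0 and 4.47 (-6.59 ± 0.80). All were low in every null clone, and lowest in C3. In Nat1+/- they were not alike: Igf2 was at 14.7 to 46.1, whereas Snrpn was at 1028 to 1837 and Peg3 at 2405 to 3679. Slc22a18, a transporter, rose (2.24 ± 0.43). Germline and meiosis genes divided, with 8 of 38 higher and 12 lower, and Hormad1 (2.69), Stag3 (2.23) and Dazl (2.01) rose while Xlr3a (-4.28) and Tdrd1 (-3.13) fell. Omitting WT replicate 1, these counts were 3 and 6, and without WT replicate 2 they were 5 and 6; 5 rose without B2, without C3 or with equal library sums. Of 6 tested Rhox homeobox genes, an X-linked reproductive cluster, 4 fell. Rhox5 read 424 and 545 in WT and 14.0, 9.32 and 11.9 in Nat1-/- (-5.26 ± 0.69).

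DNA methylation genes moved in both directions. The de novo methyltransferases fell: Dnmt3a read 3632 and 3044 in WT and 542, 446 and 507 in Nat1-/- (-2.74 ± 0.18, adjusted p = 1.2e-05), and Dnmt3b 7307 and 5674 against 2782, 2754 and 1510 (-1.51 ± 0.27). The demethylating dioxygenases Tet1, with 8812 and 10467 against 21513, 19997 and 21291 (1.12 ± 0.20), and Tet2 (1.80) rose, as did Dnmt3l (0.96 ± 0.29, a call lost without WT replicate 1, WT replicate 2, B2 or C3) and the imprint regulator Zfp57 (1.59). The null clones were apart from WT for each of these. In all 8 of 19 genes rose and 2 fell, a median of 0.46. The count that rose was 3 without WT replicate 1, 5 without WT replicate 2 or C3, 4 without C1 or B2, and 4 with equal library sums. Of 32 Polycomb genes 8 rose and 4 fell, with Bmi1 at 1.1 and Yaf2 at -2.03. On removal of WT replicate 1 there were 3 and 1, without WT replicate 2 there were 4 and 2, and without B2 2 fell.

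FGF receptor transcripts moved in opposite directions. Fgfr2 read 468 and 457 in WT and 11.4, 5.33 and 11.9 in Nat1-/- (-5.53 ± 0.36, adjusted p = 1.2e-05), and Fgfr3 65.8 and 71.4 against 845, 1060 and 804 (3.69 ± 0.26, adjusted p = 1.8e-05). Neither overlapped, and the Nat1+/- clones stayed nearer to WT, at 221 to 354 for Fgfr2 and 63.7 to 113 for Fgfr3. Fgfr1, the main receptor of these cells and on chromosome 8, fell by 0.62. Over the receptor, RAS and MAPK list 9 of 44 rose and 10 fell, with Map2k1 at 0.50, the adaptor Gab2 at -3.96 and Mapk3, or ERK1, at -0.74. The calls of Fgfr1 and Mapk3 were lost without WT replicate 1, and that of Map2k1 without WT replicate 2. With WT replicate 1 removed, the counts were 5 and 5, and without WT replicate 2 4 rose. RNA of Sos1, an activator of RAS, read 1557 and 1481 against 2220, 1692 and 1689 (0.29 ± 0.15, adjusted p = 0.176). RNA of Map3k3, the kinase MEKK3 on chromosome 11, read 2663 and 2551 against 2198, 2306 and 2111 (-0.24 ± 0.17, adjusted p = 0.283). Neither passed, while their footprints differed by -1.02 and -1.36 on the log2 scale.

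Few ERK response genes were called. Of 26 tested 5 fell and 1 rose, Etv4 (1.40), which was not called without WT replicate 1, WT replicate 2 or B2, and 9 fell without B12. Without B4 or C3, 3 rose. Egr1, an immediate early factor, read 553 and 393 in WT and 49.7, 57.3 and 19.4 in Nat1-/- (-3.57 ± 0.45), and the phosphatase Dusp4, on chromosome 8, 1076 and 1310 against 78.1, 93.2 and 158 (-3.49 ± 0.28). Dusp6, the phosphatase most tied to ERK output, read 1134 and 1305 against 2100, 2511 and 1752 and was not called (0.79 ± 0.36, adjusted p = 0.118). Spry2 (0.36), Spry4 (0.33), Etv5 (0.09) and Myc (-0.15) were not called either.

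WNT response genes were mostly lower. Of 16 tested (20 listed) 9 fell and 1 rose, Cdx1 (1.87), with a median of -1.32. The single rise was not called without WT replicate 1, WT replicate 2, B12 or B2. Sp5, a direct target of beta-catenin, read 260 and 197 in WT and 7.76, 13.3 and 2.98 in Nat1-/- (-4.84 ± 0.55). Axin2, a feedback inhibitor on chromosome 11, read 404 and 408 against 247, 245 and 146 (-0.97 ± 0.26). Ccnd2 read 593 and 801 against 329, 97.2 and 20.9, a range wider among the clones than in WT (-2.95 ± 0.85). Retinoic acid genes had 7 lower and 2 higher of 16, with Rxrg (-4.27) and Cyp26a1 (-3.79) lower and Meis2 (2.55) and Rxra (1.41) higher. The calls of Axin2 and Cyp26a1 were lost without WT replicate 1 or WT replicate 2, and that of Ccnd2 without either WT library or B2.

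BMP and Nodal pathway genes went in both directions, among ligands and among receptors. The ligands Inhbb and Bmp4 and the coreceptor Tdgf1 (1.52) rose, Bmp2 (-3.15 ± 0.86) and Bmp8b (-2.98) fell, and the antagonist Nog fell by 4.01. Among receptors Bmpr1b read 175 and 175 in WT and 2.59, 5.33 and 1.49 in Nat1-/- (-5.52 ± 0.45), whereas Acvr1b (0.91), Acvr2a (0.59) and Acvr2b (0.53) rose. Smad7, an inhibitory SMAD, read 1721 and 1694 against 9755, 7469 and 5290 (2.09 ± 0.34). Lefty1 fell (-1.76) and its neighbour Lefty2 rose (1.17). Of 32 tested 11 rose and 8 fell. The calls of Bmp2 and Nodal were lost without WT replicate 1, WT replicate 2 or B2, that of Bmp4 without WT replicate 1, and those of Acvr2a and Acvr2b without either WT library, A7, C1 or B2 (Acvr2a also without C3, Acvr2b also without B12). When WT replicate 1 was omitted, 6 rose, and without WT replicate 2 7 rose and 5 fell.

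Antigen presentation and interferon genes were mostly lower. Of 20 tested (25 listed) 12 fell and 0 rose in limma, with a median of -1.02, and without WT replicate 1 7 fell. B2m, the light chain of MHC class I, read 475 and 487 in WT and 51.8, 37.3 and 71.6 in Nat1-/- (-3.19 ± 0.28, adjusted p = 4.9e-05). The heavy chain gene H2-K1 read 1305 and 1182 against 308, 306 and 495 (-1.78 ± 0.27), with H2 genes being close copies. The immunoproteasome subunit Psmb8 read 277 and 230 against 2.59, 7.99 and 5.96 (-5.38 ± 0.90), and the peptide transporter Tap1 173 and 143 against 30.0, 17.3 and 26.8 (-2.65 ± 0.35). Every null clone was below WT in these. The RNA sensor Ifih1 (-4.64, not called without WT replicate 1) and Isg15 (-2.89) fell too, but Stat2 (0.48) and Irf9 (0.54), which carry the interferon signal, were not called. Without B12, C3 or B4 a single gene of the list rose.

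Metabolic and stress genes were called in both directions, and glycolysis and cholesterol synthesis genes less often than all genes. The called shares were 15.4% for glycolysis, 29.2% for cholesterol synthesis and 45.2% for the ATF4 list, against 35.0% over all genes. Phgdh, which opens serine synthesis, read 1742 and 2343 in WT and 300, 242 and 514 in Nat1-/- (-2.59 ± 0.27, adjusted p = 1.3e-04), and Psat1, the next enzyme, fell by 0.97 ± 0.22. Atf4, the factor that controls both, stood at 0.47 ± 0.17 (limma, adjusted p = 0.0486), a call lost without any 1 of WT replicate 1, WT replicate 2, C1, B12, B2 or C3, and that of Psat1 was lost without WT replicate 2. Over the ATF4 list 10 of 31 fell and 4 rose, and 4 of the 10 lie on chromosomes 8 or 11. With WT replicate 1 left out there were 4 and 0, without WT replicate 2 there were 2 and 1, and without B2 6 and 2. Hk1 (1.55 ± 0.30) and Hk2 (1.28 ± 0.22), the hexokinases, and Pdk1 (0.56) rose among 26 glycolysis genes, and Eno3 fell (-0.75), a call lost without WT replicate 1, WT replicate 2 or C3. Eno3, the single lower call of this list, lies on chromosome 11. After centring each chromosome 3 glycolysis genes rose and 0 fell, with Eno3 at -0.34. The Pdk1 call was lost without WT replicate 2 or B2, and with equal library sums. Without B12, 11 glycolysis genes rose; median differences from WT were -0.24 in B12, 0.32 in B2 and 0.68 in C3. Of 24 cholesterol synthesis genes 5 rose and 2 fell. Without WT replicate 1, WT replicate 2 or B2 a single gene rose, and without WT replicate 1, WT replicate 2 or C3 a single gene fell.

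Protein synthesis genes were near the background or below it. Of 82 cytosolic ribosomal protein genes 8 fell and 2 rose, with a median of 0.05, and 7 of the 8 lie on chromosomes 8 and 11. Rpl19, on chromosome 11, read 11537 and 12029 in WT and 7922, 7661 and 5732 in Nat1-/- (-0.74 ± 0.18). It was below WT in each clone, by less than 3-fold, but its call was lost without WT replicate 1 or WT replicate 2. After centring each chromosome 1 gene fell and 2 rose. The lower count was 2 without WT replicate 1, 1 without WT replicate 2, 4 without C1 or B2, 5 without C3 and 13 with equal library sums, and 0 rose without WT replicate 1 or B2. Of 21 eIF4G and cap-binding genes 5 fell and 2 rose. Eif4e3 (-2.38 ± 0.53), an eIF4E relative, Eif4ebp1 (-0.84, chromosome 8) and the helicase Eif4a1 (-0.53, chromosome 11) fell, and Eif4a2 (1.00) and Eif4e2 (0.66) rose. A single gene of the cap-binding list rose without WT replicate 1, WT replicate 2 or B2. Without B12 4 rose, but Eif4e2 was not called. After centring each chromosome 3 genes of that list fell and 1 rose, and Eif4ebp1 (-0.35) was not called. Of 33 other initiation factors Eif5a (-0.81) and Eif3m (-0.40) fell and Eif5b (0.47) rose, and no call was made without WT replicate 1. After centring each chromosome 3 genes of this list fell and 0 rose, and Eif5a (-0.40) and Eif5b (0.30) were not called. Without WT replicate 2 no gene of this list fell, and without B2 1 fell; none rose without A7, C1, B12 or B2, and 3 rose without C3. The call of Eif4a1 was lost without WT replicate 2, C1, B2 or C3, and that of Eif4e3 without WT replicate 1. Ribosomal protein and initiation factor genes have processed pseudogenes with which reads can be shared.

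Nuclear respiratory chain genes were called less often than all genes, 22.7% against 35.0%, and few were lower. Of 75 tested 15 rose and 2 fell, with a median of 0.22, and Cox6c (0.85), Sdhb (0.71) and Cox7c (0.69) were among those that rose. The 2 that fell, Ndufb7 (-0.56) and Ndufa13 (-0.54), are on chromosome 8, and after centring each chromosome 12 rose and 0 fell. Leaving out WT replicate 1, a single gene rose, without B2 6 rose, and with equal library sums 8 rose; none was called lower without WT replicate 1 or WT replicate 2. Mitochondrially encoded mRNAs, 11 tested, had a median of -0.61 with 0 called in limma. The smallest adjusted p was 0.0706, for mt-Co1 with 80480 and 49009 in WT and 52365, 40168 and 28330 in Nat1-/-, which overlap. By clone, the median difference of these mRNAs from WT stood at 0.81 for B12, -0.26 for B2 and -1.96 for C3. A single one was called lower without WT replicate 2 and 3 without B12.

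Cell cycle genes included opposing D-type cyclins. Ccnd3 rose, with 2181 and 2359 in WT and 7335, 5354 and 3852 in Nat1-/- (1.23 ± 0.24), while Ccnd2 fell, as given above, a call lost without WT replicate 1, WT replicate 2 or B2. The inhibitor Cdkn1b, or p27, read 1221 and 1069 against 2192, 2904 and 3914 (1.35 ± 0.27). Of 41 tested 13 rose and 4 fell. With WT replicate 1 left out there were 3 and 2, without WT replicate 2 there were 4 and 1, without B2 8 and 2, and with equal library sums 7 rose. Of 62 replication-dependent histone genes, near-identical copies whose mRNAs mostly lack a poly(A) tail, 13 fell and 1 rose, 3 fell and 0 rose without WT replicate 2, 0 rose without WT replicate 1, and 22 fell with equal library sums. Among p53 targets 6 of 24 fell, Fas (-3.58, not called without WT replicate 2) most, and Ei24 rose (0.62). Trp53 itself, on chromosome 11, stood at -0.74 ± 0.21, a call lost without WT replicate 1 or WT replicate 2 and after centring each chromosome (-0.33, adjusted p = 0.246), and Cdkn1a, the classical target, was not called (0.29). On removal of WT replicate 1 or WT replicate 2, 2 p53 targets fell and 0 rose, without B2 0 rose, and without B12 or C3 2 rose. Of 23 apoptosis genes 5 rose and 6 fell, among them Mcl1 (0.89) and Bcl2 (-2.53, not called without WT replicate 1). With WT replicate 1 left out there were 2 and 2, without WT replicate 2 there were 2 and 3, and without C3 3 rose.

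The clones were not alike in every gene. Over 11162 genes with a mean of at least 50 over the 8 libraries, those with predicted names left out, C3 lay at least 2-fold above both other null clones in 157 genes and below both in 182, B12 in 87 and 96, and B2 in 8 and 33. Kctd19, on chromosome 8, read 88.0 in C3 and 3.1 and 4.0 in B12 and B2, against 62.6 and 70.2 in WT. Gadd45g, a stress-induced gene, read 93.9 in C3 and 3.62 and 18.6 in B12 and B2, against 95.3 and 146 in WT. In both of these C3 resembled WT. Myh6, a cardiac myosin, kept 11.9 in B12 and 1.33 and 1.49 in B2 and C3, against 272 and 263 in WT, so that all 3 clones were low. Among Y-linked genes the clones differed in some and not in others. Ddx3y read 899 and 1051 in B12 and B2 and 2475 in C3, against 1768 and 1896 in WT, and Uty 480, 381 and 1102 against 1143 and 1024. Kdm5d was low in all 3 clones, with 77.1, 113 and 121 against 251 and 192, as was Usp9y, with 5.17, 4.0 and 10.4 against 38.2 and 29. Of 7 Y-linked genes tested only Eif2s3y was called (-0.82 ± 0.26). That call was lost without WT replicate 1, WT replicate 2, B12 or B2, while 6 of the 7 were lower without C3, 4 without B4 and 3 without C1. Relative to WT, 1016 genes were at least 2-fold higher and 2150 lower in B12, 1043 and 2317 in B2, and 1285 and 2363 in C3.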

How the data were processed

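The 8 total RNA libraries, with 8 RPF libraries of the same cultures, were prepared using the TruSeq Ribo Profile kit, per the labels' protocols. Each value deposited by the authors is a signal: the reads of a gene over that library's size factor. Tools named in the submitters' processing notes are DESeq2, HTSeq 0.6.1, TopHat2 2.1.0, Bowtie2 2.2.8, cutadapt 1.9.1 and bcl2fastq 2.17, and the builds are GRCm38.p4 and mm10. The sources used here do not say how strand and multi-mapping reads were handled, so antisense partners and near-identical copies cannot be told apart. Multiplying by the factor gave whole reads for 100% of values (tolerance 0.001). The factors set the median gene of every library to the same level, so a shift common to most genes is not visible.

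Groups came from the labels. limma 3.58.1 (R 4.3.3, eBayes with trend) was fitted on log2(value + 1) over the 8 total RNA libraries with 3 genotype means, for genes with a mean of at least 10, with two-sided Benjamini-Hochberg adjusted p under 0.05 over 13813 genes. The log2(value + 1) scale understates changes of low genes. A low gene can pass the filter through the group in which it is high. The members, gene lists and named-gene rule were chosen with earlier results of these data known; list counts are descriptions without a set test. Named are the targeted gene, its relatives, Sos1 and Map3k3, the 12 highest and 12 lowest fold changes with a mean of at least 50 and no overlap, up to 4 called members per list with the smallest adjusted p (or the 2 with the smallest p where none is called), Y-linked genes, fibroblast markers, and the 4 genes per clone and direction farthest from the other clones; other list members named beside them were chosen after their values were seen. Chromosomes came from a RefSeq table of GRCm38.p6 (96.9% of names matched), used only for chromosome, gene order and upstream sequences. On simulated data for this comparison (13717 genes) the fit recovered 33.3% of 66 genes changed 2-fold and 87.7% of 65 changed 4-fold, with 8 false calls. Changed genes were a far smaller share there than the 35.0% called in the data. The adjusted cut-off depends on that share, so this recovery does not give the power of the comparison. Alternatives included other filters, pseudocounts, scaling, count tests on the recovered reads (DESeq2 1.42.0, edgeR 4.0.16), each library left out and a replicate block. A few genes that the naming rule covers are not reported here.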

Additional observations from a re-analysis of the deposited data

How the results depend on the processing

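The count of called genes stayed between 3590 and 5421 in all alternatives except the removal of a WT culture and the 2-fold rule, which gave 2733 calls (869 higher and 1864 lower). Leaving out each library gave 2412 to 5179 calls (1010 to 2419 higher and 1402 to 2760 lower). DESeq2 made 5421 calls, of which 4807 were shared with limma, and edgeR 4925, of which 4760 were shared. Whether the replicate numbers pair the libraries could not be decided. Deviations from a genotype mean are tied within the group, and those of WT replicate 2 mirror those of WT replicate 1. Their correlations were 0.329 for WT replicate 1 with B12 and 0.172 for WT replicate 2 with B2. For WT replicate 1 with A7 the value was -0.109, and for A7 with B12 -0.192. With a replicate block 4079 genes were called (1822 higher and 2257 lower), 3935 of them shared. Of 179 named genes 167 were called, and 127 of these lost the call in none of the 27 alternatives that gave a value for them (149 to 179 genes an alternative), Eif4g2 included. Signs changed for Eif4g1, which was not called (-0.0839 with equal library sums, -0.0775 centred per chromosome, -0.0854 to 0.178 with each library left out, -0.0451 with B2 and C3 together, -0.249 for C3 alone), for Map3k3 centred per chromosome (0.168), and for Ddx3y (0.434), Uty (0.0260) and Uba1y (0.396) with C3 alone; the cause was not tested. The alternatives by chromosome were chosen after the data were seen. In the simulated data, where few genes were changed, 1.49% of 67 genes changed 1.5-fold were recovered. B2 and C3 held 16.4 and 14.2 M reads; the part of depth in the calls was not tested.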

Other observations

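Genes that share the start of a name were counted as a description, with name groups chosen after their values were seen and no test. Among lower groups, 7 of 13 tested Wnt ligands were called lower and 1 higher (median log2 fold change -2.27), as were 7 and 0 of 13 serpin protease inhibitors (-2.04), 8 and 0 of 15 TNF receptor superfamily members (Tnfrsf, -0.79) and 9 and 2 of 18 tetraspanins (Tspan, -0.48). Among higher groups, 14 of 40 Zbtb zinc finger genes were called higher and 0 lower (0.34), as were 7 and 0 of 17 Kdm histone demethylase genes (0.50) and 9 and 1 of 18 Atg autophagy genes (0.46). Over all tested genes 16.2% were called higher and 18.9% lower in limma.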
